A study of Mus musculus with 2 samples.

Results

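The 9 genes described here encode interleukin-6 and its relatives leukaemia inhibitory factor and oncostatin M (Il6, Lif, Osm), the IL-6 receptor chain and the shared signal-transducing chain gp130 (Il6ra, Il6st), the colony-stimulating factors (Csf1, Csf2, Csf3) and the receptor for the first of them (Csf1r). They were chosen by gene symbol, and all 9 were found among the 16218 genes of the table. Messenger RNA, selected by its poly(A) tail, was sequenced from mouse macrophages derived from bone marrow and grown for 5 days with 10% fetal bovine serum and 10% supernatant of L929 cells as a source of CSF1 protein. The cells were lysed 3 h after addition of 10 ng/ml lipopolysaccharide (LPS). The TKO library came from C57BL/6J cells labelled mir-106a~363-/- and mir-106b~25-/-, without these microRNA clusters, and mir-17~92flox/flox with Lyz2-Cre, which removes the floxed cluster where the Cre is active. The WT library came from C57BL/6J cells that also carried Lyz2-Cre, a recombinase driven from the lysozyme 2 locus of myeloid cells, with no deleted cluster named. Each genotype had 1 library, with 10836855 counts for TKO and 10764519 for WT, so no difference below has a replicate check. "Higher" and "lower" describe these libraries, and genotype and other differences between the cultures cannot be told apart. An unstimulated library was not analysed here.

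As background, IL-6, LIF and oncostatin M signal through receptor complexes that contain gp130, which activates JAK kinases and the transcription factor STAT3 and induces the feedback inhibitor SOCS3. IL-6 is made by macrophages soon after LPS and drives fever, the acute-phase response and lymphocyte differentiation. CSF1, acting on the receptor tyrosine kinase encoded by Csf1r, is the survival factor of macrophages. CSF2 and CSF3, also called GM-CSF and G-CSF, stimulate granulocyte and macrophage production.

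None of the 8 transcripts with enough counts to be measured was 1.5-fold apart between the libraries. Il6 was 1.34-fold higher in TKO (95% counting interval 1.25 to 1.42), Csf1 1.26-fold higher (1.2 to 1.33), Il6st 1.14-fold higher (1.01 to 1.29) and Csf1r 1.11-fold higher (1.09 to 1.12). Il6ra was 1.38-fold lower in TKO (1.13 to 1.69). Lif, Osm, Csf2 and Csf3 had intervals that included equality. These folds are ratios of counts per 1000000 counts of the library (CPM), and the intervals (exact Clopper-Pearson, conditional binomial) cover counting error only.

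A gene was taken as measured at a mean of at least 1 CPM, which 8 of the 9 passed, all but Csf3. A measured gene was called when it was at least 1.5-fold apart on the log2(CPM + 0.5) scale and its interval excluded equality. By that rule 0 of the 8 were called higher, where 2.83% of all 11662 measured genes were, and 0 were called lower, where 5.26% were. By the interval alone 4 of 8 were higher in TKO (14.1% of measured genes) and 1 of 8 lower (20.2%). The interval narrows with depth, so this second count depends on how abundant a gene is. The median log2 ratio of the 8 was 0.15, beside −0.04 for all measured genes.

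**Figure D1:**
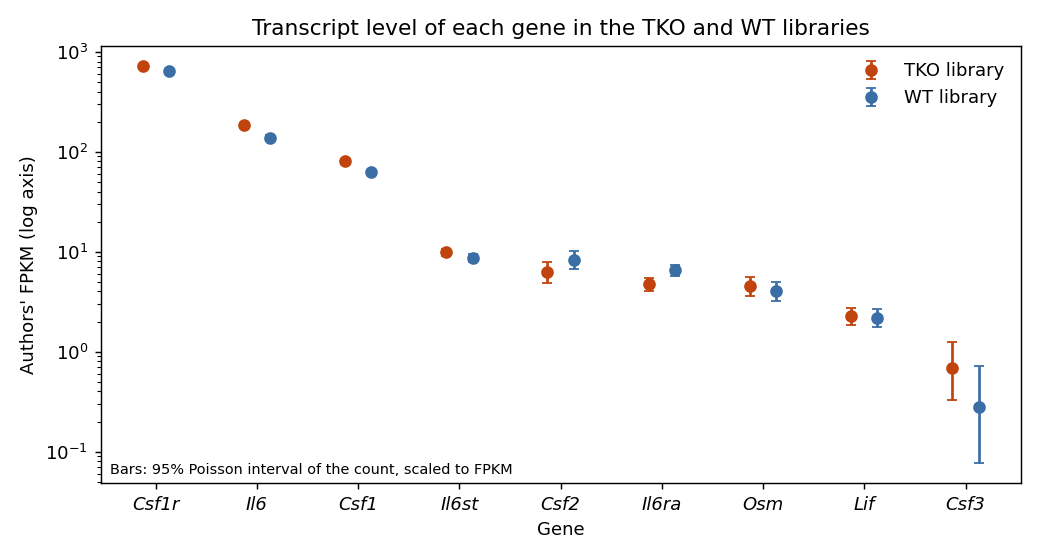
Authors' FPKM (log axis) of each gene in the TKO library (left point of each pair) and the WT library (right point), with 95% Poisson intervals of the count scaled to FPKM. Csf1r, Il6 and Csf1 stand above 60 FPKM in both libraries, 5 genes lie between 2 and 10 FPKM, and Csf3 is below 1 FPKM in both.

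The levels, compared per length in the authors' FPKM, spanned a wide range. Csf1r was the most abundant, at 716 FPKM in TKO and 648 FPKM in WT, above 99.4% and 99.3% of the measured genes of those libraries. Il6 followed at 185 FPKM in TKO and 139 FPKM in WT, and Csf1 at 81.1 FPKM in TKO and 63.3 FPKM in WT. In both libraries the order then ran Il6st, Csf2, Il6ra, Osm, Lif and Csf3. Scaled to FPKM, the counting intervals of neighbours overlapped for Csf2 with Il6ra and for Il6ra with Osm in TKO, and for Il6st with Csf2 and for Csf2 with Il6ra in WT. All other neighbours were separate beyond counting error.

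The microRNAs of the clusters named in the TKO genotype fall into 4 families by seed, the bases 2 to 8 that pair with a target. The sequences of 1 mature microRNA of each family are shown because their seeds were searched for in the 9 transcripts. Levels of the mature microRNAs, and how far mir-17~92 was removed in the TKO cells, were not analysed here. The sequences are from RefSeq (build GRCm38.p6), written 5′ to 3′ with the seed in capitals. For miR-19b-3p and miR-92a-3p, each also encoded in mir-106a~363, the position in mir-17~92 is given.
miR-17-5p (chr14:115043684-115043706, plus strand): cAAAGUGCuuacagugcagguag
miR-18a-5p (chr14:115043867-115043889, plus strand): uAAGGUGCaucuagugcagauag
miR-19b-3p (chr14:115044358-115044380, plus strand): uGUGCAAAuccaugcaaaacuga
miR-92a-3p (chr14:115044476-115044496, plus strand): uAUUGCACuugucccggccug
The miR-17 seed is carried by 6 mature sequences of the clusters, the miR-18 seed by 2, the miR-19 seed by 2 and the miR-25/92 seed by 3.

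Matches to these seeds lay in the longest annotated 3′ UTR (GENCODE M21, GRCm38) of 6 of the 9 genes, 13 matches in all, of which 8 were to the miR-17 seed. A match to any of the 4 seeds was present in 36.0% of the 11146 measured genes with a 3′ UTR, and a miR-17 match in 15.5%. The longest UTRs of Il6ra and Il6st measured 7102 and 5641 bases, against a median of 1403 bases over measured genes, and the part of UTR length in these counts was not tested. In the transcript nearest to the deposited gene length, 5 genes kept 10 matches. The windows below show these matches on the mRNA strand, with the bases that pair to the seed in capitals.
Osm, miR-17 (chr11:4240109-4240138, plus strand): cacacagaagaGCACTTTaaggggtgaagt
Lif, miR-17 (chr11:4271474-4271503, plus strand): tcactctctaaGCACTTTacctggacggca
Lif, miR-18 (chr11:4271450-4271479, plus strand): cacgcggttttGCACCTTtctctgtcactc
Lif, miR-19 (chr11:4271447-4271476, plus strand): cttcacgcggtTTTGCACctttctctgtca
Lif, miR-19 (chr11:4272287-4272316, plus strand): ccagcctctccTTTGCACtgctgctctccc
Il6ra, miR-17 (chr3:89870759-89870788, minus strand): ctaaagtccaaGCACTTTgccattctcttt
Il6ra, miR-17 (chr3:89870278-89870307, minus strand): ctagcaagaatGCACTTTcattttggtttt
Il6st, miR-17 (chr13:112505280-112505309, plus strand): tggttgaggaaGCACTTTatccagaatgtc
Il6st, miR-19 (chr13:112504655-112504684, plus strand): ctttcagaatgTTTGCACtgccgaaaacaa
Csf1, miR-17 (chr3:107742082-107742111, minus strand): ttctgcatcttGCACTTTgacattcccagg
In Lif the upstream miR-19 match and the miR-18 match share 4 bases, and the miR-17 match begins after 17 further bases. The match of Il6, to the miR-25/92 seed, lay only in a transcript of 2343 bases, while the deposited length of 1140.26 bases is close to a transcript of 1141 bases without it. A further miR-17 match of Il6ra and one of Il6st also lay outside the transcript nearest in length. Csf2, Csf3 and Csf1r had no match.

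**Figure D2:**
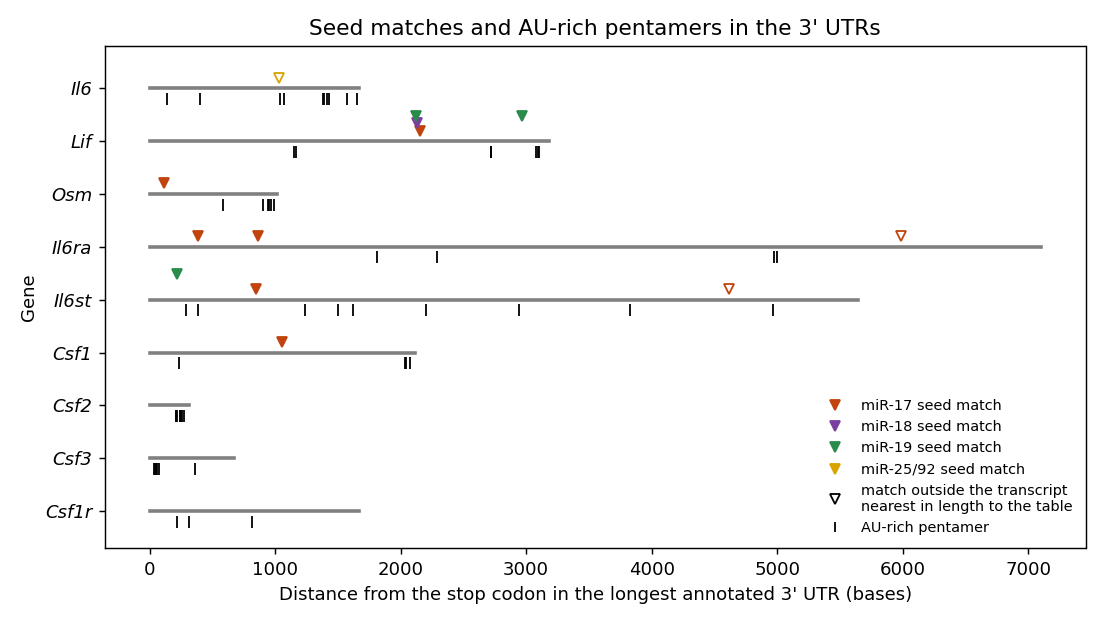
Position of seed matches (triangles, filled where the match lies in the transcript nearest in length to the deposited gene length) and of the AU-rich pentamer (ticks) along the longest annotated 3′ UTR of each gene, in bases from the stop codon. The miR-17 matches fall in Lif, Osm, Il6ra, Il6st and Csf1, and the pentamer is present in all 9 genes.

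Set beside the matches, the ratios of the libraries showed no single direction. The 5 genes with a miR-17 match had TKO over WT ratios of 1.04 for Lif, 1.13 for Osm, 0.723 for Il6ra, 1.14 for Il6st and 1.26 for Csf1. The 3 measured genes without one had 1.34 for Il6, 0.742 for Csf2 and 1.11 for Csf1r. The ranges of these groups overlapped. Il6ra, the gene with most miR-17 matches and the longest UTR, was the one measured transcript of the 9 with an interval wholly below equality. Whether the matches bear on these ratios was not tested.

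Among the gp130 cytokines, Il6 (gene 16193, chr5:30013114-30019981, plus strand) had 2252 counts in TKO and 1675 counts in WT, or 208 and 156 CPM. Its counting intervals, 199 to 217 CPM in TKO and 148 to 163 CPM in WT, did not overlap. Il6 therefore differed beyond counting error, by less than the 1.5-fold used for a call. Of the measured genes, 18.5% lay farther from a log2 ratio of 0 than Il6 did, and of those with a mean of at least 10 CPM, 11% did.

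Osm and Lif lie next to each other on chromosome 11, 16530 bases apart, at chr11:4236420-4241026 and chr11:4257557-4272514, both on the plus strand. Osm (gene 18413), whose product is released by activated myeloid cells and acts mainly on stromal and endothelial cells, had 93 counts in TKO and 82 counts in WT. Its ratio was 1.13 (0.828 to 1.54). Lif (gene 16878), best known for keeping mouse embryonic stem cells undifferentiated, had 99 counts in TKO and 95 counts in WT, a ratio of 1.04 (0.773 to 1.39). A difference of either gene was not detectable at this depth, and a difference as large as 1.39-fold in Lif would lie within counting error.

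The receptor chains of IL-6 went in opposite directions. Il6ra (gene 16194, chr3:89864059-89913196, minus strand), the chain that binds IL-6, had 174 counts in TKO and 239 counts in WT, or 16.1 and 22.2 CPM. Il6st (gene 16195, chr13:112464070-112510086, plus strand), which encodes gp130, had 591 counts in TKO and 515 counts in WT, or 54.5 and 47.8 CPM. The ratio of Il6st to Il6ra was 1.58 times as large in TKO as in WT (exact conditional interval 1.25 to 1.99), a quantity that does not depend on how the libraries are scaled. In FPKM, Il6st was 2.10 times Il6ra in TKO and 1.33 times Il6ra in WT. The ratio of the ligand Il6 to Il6ra was likewise 1.85 times as large in TKO (1.5 to 2.28), at 39.2 in TKO and 21.2 in WT by FPKM. These pairs, and those of the other ligands below, were chosen after their values were seen.

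**Figure D3:**
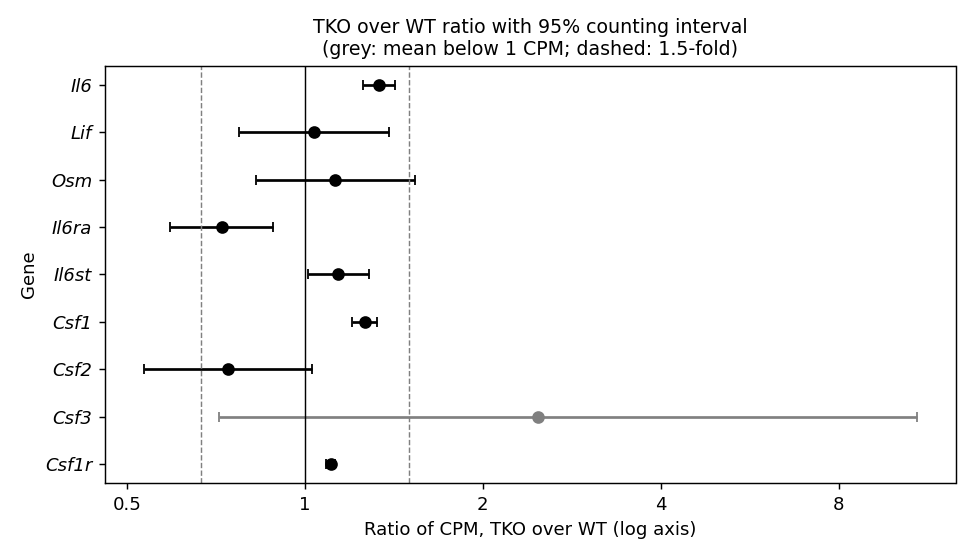
TKO over WT ratio of CPM for each gene (log axis) with its 95% counting interval, in the order of roles. Dashed lines mark 1.5-fold, and the grey point is Csf3, below a mean of 1 CPM. Il6, Il6st, Csf1 and Csf1r lie above 1 with intervals that exclude 1, and Il6ra lies below.

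Of the colony-stimulating factors, Csf1 (gene 12977, chr3:107741048-107760469, minus strand) was by far the most abundant. It had 3628 counts in TKO and 2853 counts in WT, or 335 and 265 CPM, and the counting intervals (324 to 346 CPM in TKO, 255 to 275 CPM in WT) did not overlap. The CSF1 protein in the culture medium came from L929 cells and is not part of this measurement. Csf2 (gene 12981, chr11:54247271-54249667, minus strand) had 68 counts in TKO and 91 counts in WT, a 1.35-fold lower value in TKO with an interval from 0.973-fold to 1.87-fold lower that included equality. The ratio of Csf1 to Csf2 was 1.70 times as large in TKO as in WT (1.22 to 2.37). Csf3 (gene 12985, chr11:98701263-98703629, plus strand), the granulocyte factor, had 10 counts in TKO and 4 counts in WT, near the floor of 3 counts. Its ratio of 2.48 had an interval of 0.716 to 10.8, so a difference was not detectable at this depth.

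Csf1r (gene 12978, chr18:61100598-61132149, plus strand) had 30290 counts in TKO and 27207 counts in WT, or 2795 and 2527 CPM. Its interval was narrow because of this depth, and the difference was small: 58.1% of measured genes lay farther from equality. Relative to its receptor, Csf1 was 1.14 times as high in TKO as in WT (1.08 to 1.2), and Csf1r transcripts were 8.84 times Csf1 in TKO and 10.2 times Csf1 in WT by FPKM. Csf1r overlaps the gene Hmgxb3 on the opposite strand, and no source used here gives the strand setting of the counting.

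**Figure D4:**
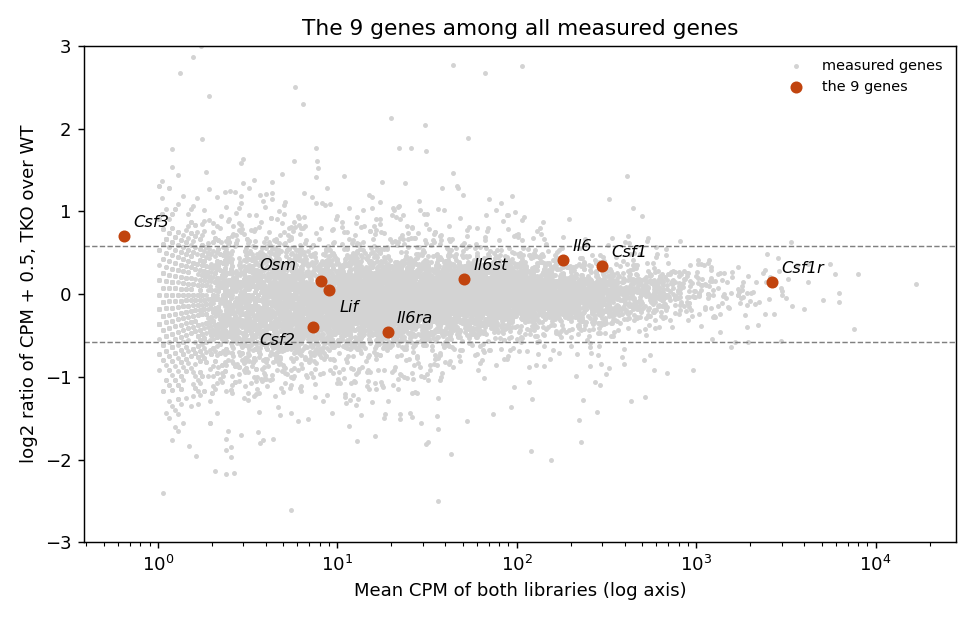
log2 ratio of CPM + 0.5, TKO over WT, against the mean CPM of both libraries (log axis) for measured genes (grey) and the 9 genes (orange), with dashed lines at 1.5-fold. The 8 measured genes lie between the dashed lines, Csf3 lies above the upper line at a mean below 1 CPM, and 19 measured genes fall beyond the plotted limit of 3.

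The authors' deposited table sets the same libraries against each other, with no replicate. Of the 9 genes, 4 had an adjusted value of at most 0.05 in the authors' deposited table: Il6, Csf1 and Csf1r higher in TKO, and Il6ra lower. The share of all genes at or below that value was not computed, so this count is not read as particular to the 9. The log2 ratio in the authors' deposited table, computed from FPKM, was 0.42 for Il6, 0.36 for Csf1, 0.15 for Csf1r and −0.47 for Il6ra.

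The cultures were checked against markers. Beside the calls below, 2.83% of all measured genes were called higher in TKO and 5.26% lower. All 10 macrophage markers, which include Csf1r, itself one of the 9 genes, were measured and 0 were called apart. Mpeg1, the most abundant of them, had 35488 counts in TKO and 25966 in WT, 1.36-fold higher in TKO (1.34 to 1.38). Cd14 had 18329 counts in TKO and 19665 in WT, 1.08-fold lower in TKO (1.06 to 1.10). Both intervals excluded equality, so the absence of calls does not mean equal levels. Of 17 fibroblast and stromal markers, 15 were measured and 11 were called lower in TKO, with a summed level of 251 CPM in TKO and 597 CPM in WT. Those lower were the collagen genes Col1a1, Col1a2, Col3a1, Col5a1, Col6a1 and Col6a2, the matrix genes Postn, Dcn and Sparc and the contractile genes Acta2 and Tagln. Col1a1 had 550 counts in TKO and 2055 in WT, and Col1a2 428 in TKO and 1166 in WT, while the receptor gene Pdgfrb had 510 in TKO and 478 in WT. Also measured and not called were Pdgfra (30 counts in TKO, 32 in WT), Thy1 (39 in TKO, 33 in WT) and Cxcl12 (29 in TKO, 42 in WT). None of the 17 was at 0 in either library. Stromal cells can also make Il6, Lif and Csf1, and the part of these transcripts in the 9 genes' values was not tested. In such bulk samples fewer cells of a type and less RNA per cell cannot be told apart. For T and NK cells 4 of 7 markers were found in the table, summing to 7.01 CPM in TKO and 9.75 CPM in WT. Of these, 3 were measured: Lck, at 10 counts in TKO and 32 in WT, was called lower, Cd3d had 48 counts in TKO and 53 in WT, and Cd2 had 10 in TKO and 16 in WT. Neutrophil markers summed to 84.6 CPM in TKO and 89.8 CPM in WT, nearly all from Csf3r (874 counts in TKO and 921 in WT), which macrophages also express. Of the 4 measured, S100a9 was called lower, at 8 counts in TKO and 21 in WT (2.64-fold, 1.12 to 6.90). Mpo had 18 counts in TKO and 12 in WT, and Ly6g had 1 count in TKO and 0 in WT. The 3 B cell markers had 6 counts in each library. The 2 mast cell markers found had 10 counts in TKO and 15 in WT, of which Kit had 9 in TKO and 15 in WT. Endothelial markers summed to 60.0 CPM in TKO and 35.0 CPM in WT, mostly from Kdr (576 counts in TKO and 281 in WT, called higher). Cdh5 had 32 counts in TKO and 50 in WT, and Pecam1 had 37 in TKO and 43 in WT.

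The other ligands of the gp130 family included a gene farther apart than any of the 8 measured ones above. Of 4 measured, 1 was called lower in TKO and 0 higher, and their median log2 ratio was −0.39. Il27, which encodes the p28 subunit of IL-27, was 1.60-fold lower (1.44 to 1.78), at 591 counts in TKO and 941 in WT. Its partner subunit gene Ebi3 was 1.14-fold lower (1.04 to 1.25). Il11, a gp130 cytokine made mainly by stromal cells, had 103 counts in TKO and 83 in WT, with an interval that included equality (ratio 1.23, 0.914 to 1.67).

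Among the other receptors of the family and the proteases that shed them, 1 of 5 measured was called lower and 0 higher, with a median of 0.05. Osmr, the oncostatin M receptor chain, had 19 counts in TKO and 47 counts in WT, 2.49-fold lower (1.43 to 4.49). Adam17, the protease that releases the IL-6 receptor and TNF from the cell surface, was 1.10-fold higher (1.06 to 1.13), and Adam10 had a ratio of 1.03 (0.985 to 1.08). Il11ra1, a member of a family of similar copies among which reads can be divided, had a ratio of 0.944 (0.784 to 1.14). Osmr is a gene of stromal cells. Of their 15 measured markers 11 were called lower in the same library and the others were not. The part of stromal cells in the Osmr value was not tested. The ratio of Osm to Osmr was 2.81 times as large in TKO as in WT (1.47 to 5.47), while that of Lif to its receptor gene Lifr was 0.862 times as large (0.554 to 1.34).

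Downstream of gp130, 1 of 15 measured JAK-STAT genes was called lower in TKO and 0 higher, with a median of −0.15. That gene was Stat5a, a transcription factor used by the CSF2 receptor, at 2140 counts in TKO and 3496 in WT, 1.64-fold lower (1.56 to 1.74). Socs3, the feedback inhibitor of gp130, was 1.18-fold lower (1.16 to 1.21), with 13513 counts in TKO and 15878 in WT. The kinase gene Jak2 was 1.11-fold lower (1.08 to 1.14), and Jak1 had a ratio of 0.964 (0.924 to 1.01).

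The receptors and further ligands of the colony-stimulating factor group had a median of 0.21, and of 9 measured genes 1 was called higher and 0 lower. Il3ra, the binding chain of the IL-3 receptor, was 1.60-fold higher (1.40 to 1.83), at 579 counts in TKO and 360 in WT. The CSF2 receptor genes were higher by less: Csf2ra 1.17-fold (1.11 to 1.24) and Csf2rb 1.18-fold (1.14 to 1.22). Csf2rb2, a close copy of Csf2rb, was 1.17-fold higher (1.13 to 1.21). Reads can be divided between these copies, so each single value is uncertain. The ratio of Csf2 to Csf2ra was 0.634 times as large in TKO as in WT (0.454 to 0.883). That of Csf3 to Csf3r was 2.63 times as large, with an interval of 0.756 to 11.5 that included equality.

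**Figure D5:**
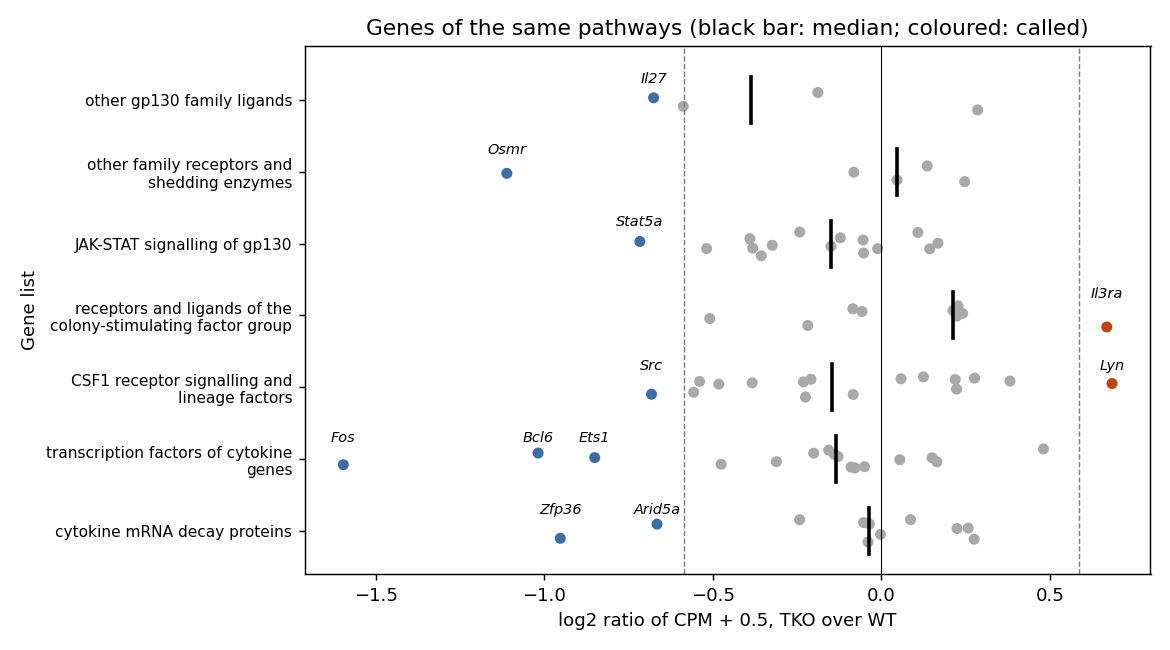
log2 ratio of CPM + 0.5, TKO over WT, of the measured genes of each pathway list (points), with the median of each list (black bar) and dashed lines at 1.5-fold. Called genes are coloured and named: Il3ra and Lyn are higher, and Il27, Osmr, Stat5a, Src, Fos, Bcl6, Ets1, Zfp36 and Arid5a are lower.

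Among 16 measured genes of CSF1 receptor signalling and macrophage lineage, 1 was called higher and 1 lower, with a median of −0.15. They belong to the same kinase family: Lyn, at 4563 counts in TKO and 2820 in WT, was 1.61-fold higher (1.53 to 1.69), and Src, at 1324 counts in TKO and 2113 in WT, was 1.61-fold lower (1.5 to 1.72). Spi1, which encodes PU.1, an activator of Csf1r, was 1.09-fold higher (1.06 to 1.12), and the adaptor gene Tyrobp had a ratio of 1.04 (0.995 to 1.09).

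Of 16 measured transcription factors of cytokine genes, 3 were called lower in TKO and 0 higher, with a median of −0.13. Fos, an AP-1 subunit, was 3.20-fold lower (2.39 to 4.36), with 60 counts in TKO and 191 in WT. The repressor gene Bcl6 was 2.04-fold lower (1.82 to 2.28) and Ets1 1.93-fold lower (1.26 to 2.99). The abundant Nfkb1 was 1.12-fold higher (1.09 to 1.15), Junb 1.24-fold lower (1.21 to 1.28) and Irf1 1.04-fold lower (1.00 to 1.07).

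The promoter sequences of 6 of the 9 genes, from 250 bases before to 50 after the start (RefSeq, GRCm38.p6), were searched on both strands for motifs of such factors. For Osm, Csf3 and Csf1r no promoter sequence was available. The NF-κB-like motif of GGG, any 2 bases and TTTCC was found in Il6 and Csf1, and in 1.63% of all 32851 promoters. A wider motif of GGG, any 3 bases and TTCC, present in 5.56% of promoters, matched the same bases. The AP-1 motif TGANTCA was found in Il6 and Lif (7.81% of promoters) and the C/EBP-like motif TTGCNNAA in Il6 and Csf2 (10.8%). The motifs TGACGTCA (1.79%) and TATAAA (13.6%) matched none of the 6, and Il6ra and Il6st had no match to any of the 6 motifs. The match of Csf2 was placed from an annotated start upstream of the gene bounds given above. The absence of other motifs in Csf2 therefore holds only for the sequence searched. The NF-κB-like matches, shown because Il6 and Csf1 are the cytokines higher in TKO beyond counting error, are in capitals. A link between the motif and these ratios was not tested.
Il6 promoter (chr5:30013060-30013089, plus strand): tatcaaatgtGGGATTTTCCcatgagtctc
Csf1 promoter (chr3:107760604-107760633, minus strand): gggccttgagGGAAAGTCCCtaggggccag
The match begins at base −44 from the start in Il6 and, on the opposite strand, at base −154 in Csf1.

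Short-lived cytokine mRNAs carry AU-rich elements in their 3′ UTRs, which proteins such as tristetraprolin bind to speed decay. The pentamer ATTTA was present in the longest 3′ UTR of all 9 genes and in 71.7% of measured genes. The nonamer TTATTTATT was present in Csf2, 4 times counting overlaps, and in Lif, 2 times, and in 8.27% of measured genes. The densest window of Csf2 shows overlapping pentamers in capitals, in a UTR of 317 bases.
Csf2 AU-rich element (chr11:54247329-54247358, minus strand): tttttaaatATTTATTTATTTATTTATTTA
Of 11 measured decay and stability proteins, 2 were called lower in TKO and 0 higher. Zfp36, which encodes tristetraprolin, had 5058 counts in TKO and 9727 in WT, 1.94-fold lower (1.87 to 2.00). Arid5a, which encodes a protein that stabilises Il6 mRNA, was 1.59-fold lower (1.40 to 1.82). Zc3h12a, encoding the nuclease Regnase-1 that cleaves Il6 mRNA, was 1.18-fold lower (1.13 to 1.24), and Zc3h12c 1.2-fold higher (1.14 to 1.26). The list's median of −0.04 was 0.01 with TMM scaling, so its sign is not read. Csf2, with the most nonamers, had a ratio below 1 and Lif a ratio of 1.04, both with intervals that included equality. The part of the decay proteins in these values was not tested.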

How the data were processed

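The authors deposited 1 table for the TKO and WT libraries with estimated counts per gene, FPKM values, a log2 ratio, a p-value and an adjusted value (a score here, as it can exceed 1). Per the submitters' processing notes, which give no roles or order, RSEM 1.2.12, Bowtie2 2.2.5, HISAT2 2.0.4 and mouse build mm10 were used. Annotation, filters, strand setting and the test are not given in the sources used here. Estimated counts, as deposited, were rounded to whole numbers. The 1 entry without a symbol had 1 count in each library (9.23e-06% of TKO, 9.29e-06% of WT) and was left out. In the deposited FPKM, 0.01 stands for 0. The authors' log2 ratio is TKO over WT, per the file headers, and the deposited gene length is in bases.

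CPM used the library total. With 1 library per genotype no p-value was computed. Calls needed 1.5-fold with 0.5 CPM added and a 95% interval excluding equality, and the calling was tested on simulated data. Those data held Poisson counting error only, so the test says nothing about differences between cultures. Reads amplified by PCR are not independent molecules, so intervals cover counting error only. All 9 genes were named, and of each list the called genes and the 3 most abundant measured ones. Outside that rule, Ly6g was named for its 0 counts in WT and Lifr as the receptor gene of Lif. Pdgfra, Thy1 and Cxcl12 were named too, as measured stromal markers that were not called. A few genes of these pathways are not reported here and are left out of the lists' counts and medians. Genes and lists were chosen with earlier results of these data known. No gene was named for a similar pattern, since each has a single ratio. Scaling by TMM (edgeR 4.0.16) and by DESeq2 1.42.0 size factors, FPKM, pseudocounts of 0.1 and 1, a fold of 2, no filter and a mean of 10 CPM were alternatives. Python 3.11.15 and scipy 1.17.1 were used.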

Additional observations from a re-analysis of the deposited data

How the results depend on the processing

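Under TMM scaling, DESeq2 size factors, the authors' FPKM and pseudocounts of 0.1 and 1 CPM, every one of the 9 log2 ratios kept its sign. Those of Csf1r moved beyond counting error, to 0.19 with TMM and 0.18 with DESeq2 size factors, beside 0.15. Both scalings left the same 5 genes with intervals excluding equality. The count of the 9 called apart stayed at 0 in each direction under every alternative run. A fold of 2 and a minimum of 10 CPM could only remove calls. Without the filter only Csf3 was added, and its interval included equality, so these runs could not change the count. Over all measured genes, 330 were called higher in TKO and 613 lower. A fold of 2 gave 119 and 196, and a mean of at least 10 CPM, with fewer genes tested, gave 168 and 247. At that minimum the lower calls among the other receptors were 0, since Osmr no longer qualifies, and those among the transcription factors were 2, beside 3, since Ets1 no longer qualifies. Over both scalings, no filter and that minimum, the other 55 of 56 list counts stayed within 1.5 times. Depth limits Lif, Osm, Csf2 and Csf3. No paired analysis was possible because each genotype had 1 library.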
